A study of Mus musculus with 15 samples.

Results

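The elastic fiber genes of the aortic wall were taken as 10 gene symbols, Eln, Fbn1, Fbn2, Fbln5, Efemp2, Lox, Loxl1, Emilin1, Mfap4 and Mfap5, out of 24982 gene symbols counted. They were followed in 15 whole aortas from male wild-type C57BL/6 mice aged 10 months, 5 per group and 1 aorta per library, by poly(A)-selected RNA-Seq. All mice, controls included, received aldosterone by minipump at 200 μg/kg/d, with 0.9% NaCl and 0.2% KCl in the water, for 7 days (Aldo-salt), so the effect of Aldo-salt itself cannot be read from these groups. Control mice had been sham operated, orchiectomized mice had lost the testes, and DHT mice were orchiectomized and carried a pellet of dihydrotestosterone (DHT), a potent androgen that is not converted to estrogen. Treatment began after 2 weeks of recovery from the operation. The question was whether loss of gonadal androgen, or its replacement, changes the genes that build elastic fibers.

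Elastic fibers give the aorta its recoil. Their core is elastin, secreted by smooth muscle cells as the soluble monomer tropoelastin and laid on a scaffold of fibrillin microfibrils, and fibulins bring elastin together with the cross-linking enzymes. Lysyl oxidases then join elastin chains by covalent bonds, while microfibril-associated glycoproteins and emilin decorate the fiber. Inherited defects of several of these genes cause aortic aneurysm or loose, inelastic vessels, and broken elastic lamellae are a hallmark of aneurysm tissue.

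Libraries held between 8268957 and 13816864 reads assigned to genes, and 14121 genes passed the filter on low counts. Of the 10 elastic fiber genes 9 passed, and Fbn2 did not. Levels are given as CPM, read counts scaled to library size and composition, and changes as log2 fold changes from edgeR with the standard error (SE) or the 95% confidence interval (CI). Genes were called here at an unadjusted P value below 0.01. Printed P values from edgeR are those adjusted over all genes tested by the Benjamini-Hochberg method, so a called gene can carry a large one. Orchiectomized replicate 2 stood at the edge of its group, being the lowest of all 15 libraries for 5 of the 9 tested elastic fiber genes, and orchiectomized replicate 1 was the highest for 5 of 9.

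Smooth muscle markers, 10 genes including Acta2 and Myh11, were abundant in every library, with a summed level between 11667 and 26998 CPM, which matches the labelled tissue. In whole aortas, fewer cells of a type and less RNA per cell cannot be told apart. Marker levels of several cell types differed between the DHT and orchiectomized groups. The mean log2 level of the smooth muscle list was 0.45 higher in DHT mice than in orchiectomized mice (exact permutation P = 0.032, two-sided; adjusted P = 0.076), and the fibroblast list was lower, with a difference of -0.59 (exact permutation P = 0.016; adjusted P = 0.063). Endothelial markers, a list of 9 genes, were lower as well, with a difference of -0.38 (exact permutation P = 0.016; adjusted P = 0.063). For the smooth muscle list orchiectomized replicate 2 was the lowest of its group (9.18, next 9.77). For the endothelial list it was the highest (7.15, next 6.74), so it widens both differences. T cell (-1.98) and mesothelial (-2.63) lists were lower and the skeletal muscle list (2.45) was higher in DHT mice, each at the smallest P value that 5 mice against 5 allow (exact permutation P = 0.0079; adjusted P = 0.048 over 24 marker tests). What part these shifts have in the results on elastic fiber genes was not tested.

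Start-site sequences are shown for the fibulin family, some of whose genes were called with DHT and others not, so that the letters upstream of both kinds can be compared. RefSeq windows on GRCm38.p6 were at hand for 4 of the 10 elastic fiber genes, Fbn1, Fbln5, Efemp2 and Emilin1. The hexamer AGAACA, the core that the androgen, glucocorticoid and mineralocorticoid receptors share, was searched on both strands, and capitals mark it. Each fibulin sequence is the first 240 bases of the window, upstream of the annotated transcript. Fbln5 (fibulin-5, chr12:101819130-101819369, minus strand) and Efemp2 (fibulin-4, chr19:5473696-5473935, plus strand) are elastic fiber genes that were not called with DHT. Efemp1 (fibulin-3, chr11:28852955-28853194, plus strand) and Fbln1 (fibulin-1, chr15:85205699-85205938, plus strand) are relatives that fell.
Fbln5: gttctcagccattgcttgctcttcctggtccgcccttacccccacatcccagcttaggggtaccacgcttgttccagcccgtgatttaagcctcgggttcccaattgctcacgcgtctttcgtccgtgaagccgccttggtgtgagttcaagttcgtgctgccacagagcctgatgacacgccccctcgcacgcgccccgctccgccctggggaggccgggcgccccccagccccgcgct
Efemp2: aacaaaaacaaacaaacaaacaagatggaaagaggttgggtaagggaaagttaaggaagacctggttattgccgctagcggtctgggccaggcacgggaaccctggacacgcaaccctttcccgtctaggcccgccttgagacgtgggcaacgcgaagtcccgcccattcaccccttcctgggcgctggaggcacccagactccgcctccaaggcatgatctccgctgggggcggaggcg
Efemp1: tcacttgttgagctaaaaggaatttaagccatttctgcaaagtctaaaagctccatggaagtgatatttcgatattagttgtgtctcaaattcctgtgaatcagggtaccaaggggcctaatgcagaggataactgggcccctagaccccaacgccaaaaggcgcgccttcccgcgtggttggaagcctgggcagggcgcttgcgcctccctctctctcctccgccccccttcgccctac
Fbln1: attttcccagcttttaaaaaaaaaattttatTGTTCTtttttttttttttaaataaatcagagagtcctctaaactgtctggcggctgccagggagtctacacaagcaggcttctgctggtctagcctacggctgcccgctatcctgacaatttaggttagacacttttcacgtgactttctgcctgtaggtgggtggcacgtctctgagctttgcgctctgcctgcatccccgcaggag
Among these 4 sequences the hexamer appeared in Fbln1, on the minus strand. The window of Fbln2, another relative that fell and is not printed, held none. In Emilin1 it lay within the 5′ untranslated region that GENCODE annotates, shown here by 30 bases (chr5:30913588-30913617, plus strand).
Emilin1: ccaggggcccagAGAACAgactcccctcag
Emilin1 had the sole match among the 7 windows of elastic fiber genes, and it was not called in any comparison. By comparison, 19.0% of all 32851 RefSeq windows of the same length held the hexamer. The palindrome made of the hexamer and its inverted copy 3 bases apart, which contains the hexamer, was in none of the 7 and in 0.00913% of all windows. A match describes letters and not a binding site.

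Eln was by far the most abundant of the 10 when levels were set per length of transcript. Its mean over the 15 libraries was 925 CPM per kilobase of the principal GENCODE transcript, 3.52 times that of the next gene, Mfap4 (263 CPM per kilobase). Loxl1 followed at 141 CPM per kilobase, and each of these stood above the next gene in 15 of 15 libraries. Fbln5 (103 CPM per kilobase over all libraries) and Mfap5 (102) were ordered differently by group. Fbln5 exceeded Mfap5 in 5 of 5 DHT libraries (means of 95.3 and 76.6 CPM per kilobase), in 3 of 5 orchiectomized and in 1 of 5 control libraries. Emilin1 (60.1), Lox (54.6) and Efemp2 (49.3) also changed places. Lox exceeded both in 5 of 5 control libraries, with a mean of 68.4 CPM per kilobase against 57.3 for Emilin1 and 45.2 for Efemp2. In DHT libraries Lox was below both in 5 of 5 (40.7 against 57.5 and 53.7 CPM per kilobase), and in orchiectomized libraries it was below Emilin1 in 5 of 5 and above Efemp2 in 3 of 5. Fbn1 was lower, at 27.0 CPM per kilobase. Fbn2, the fibrillin known for its role in the developing vessel, was close to absent.

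Eln, on chromosome 5 (GRCm38, as for all gene positions here, 134702593-134747323, minus strand, 37 exons in the principal transcript), encodes tropoelastin. Its level in control mice was 3165, 4453, 2987, 4448 and 3118 CPM. Orchiectomized mice had 4921, 2365, 3489, 3115 and 4566 CPM, and DHT mice had 3753, 3212, 3565, 3381 and 2909 CPM. The 3 groups overlapped throughout, and the orchiectomized group spread the most, with a coefficient of variation of 28.5% against 9.66% in DHT mice. The log2 fold change was 0.02 with orchiectomy (95% CI -0.39 to 0.44), -0.13 with DHT against orchiectomy alone (95% CI -0.55 to 0.28) and -0.11 for DHT against control (95% CI -0.53 to 0.30). The last was -0.03 without control replicate 2 and -0.18 without control replicate 3. The antisense gene Gm30003 overlaps Eln, and whether the counting used strand is not given in the sources used here, so its reads cannot be told apart from those of Eln.

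Fbn1, on chromosome 2 (125300594-125507993, minus strand), encodes the main fibrillin of adult microfibrils, the protein altered in Marfan syndrome. Control mice had 293, 363, 267, 467 and 375 CPM, orchiectomized mice 319, 208, 559, 363 and 339 CPM, and DHT mice 336, 289, 200.0, 261 and 205 CPM. DHT values lay toward the lower end of the other groups but overlapped both. Fbn1 was not called. Its log2 fold change was -0.47 for DHT against orchiectomy alone (SE 0.23, adjusted P = 0.26 by edgeR), -0.45 for DHT against control (adjusted P = 0.46) and 0.02 with orchiectomy. Without orchiectomized replicate 3, the highest of the 15, the first of these was -0.22 (adjusted P = 0.60 by edgeR). Without orchiectomized replicate 2 it was -0.60 (adjusted P = 0.14 by edgeR), larger but still not called. Fbn2, on chromosome 18 (58008623-58210487), was counted 4 times in the control libraries together, 22 times in the orchiectomized and 2 times in the DHT libraries, with no library above 9 reads. It was too scarce to test.

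Mfap5, on chromosome 6 (122505845-122529290, plus strand, no overlapping gene), was the elastic fiber gene that fell with DHT. It encodes microfibril-associated glycoprotein 2, which binds fibrillin and is made largely by adventitial fibroblasts. Control mice had 140, 165, 153, 180 and 148 CPM. Orchiectomized mice had 229, 167, 182, 173 and 197 CPM, and DHT mice had 130, 133, 136, 94.3 and 84.3 CPM. All 5 DHT libraries were below every orchiectomized library and below every control library, while control and orchiectomized libraries overlapped. Against orchiectomy alone Mfap5 fell by 0.72 on the log2 scale (95% CI -1.02 to -0.42, adjusted P = 0.016 by edgeR), to 115 ± 24.2 CPM from 190 ± 24.5 CPM (mean ± SD, n = 5). With the compared groups alone in the fit the call held, but its adjusted P = 0.058 by edgeR missed the adjusted threshold of 0.05.

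The same gene was lower in DHT mice than in control mice, where it fell by 0.45 on the log2 scale (95% CI -0.74 to -0.15), a call whose adjusted P = 0.25 by edgeR missed the adjusted threshold of 0.05. That call was lost when control replicate 2 or 4, or DHT replicate 4 or 5, was left out, with log2 fold changes of -0.43, -0.39, -0.38 and -0.35 in that order. With orchiectomy the value was 0.27 (95% CI -0.03 to 0.57, adjusted P = 0.45 by edgeR), which was not called. It was 0.17 without orchiectomized replicate 1. Beside Mfap5, the summed level of the 10 fibroblast markers, none of which is an elastic fiber gene, was 4445 to 6943 CPM in DHT mice, 5783 to 9940 CPM in orchiectomized mice and 6058 to 8888 CPM in control mice. DHT replicates 4 and 5, the lowest for Mfap5, were also the lowest of the 15 libraries for the fibroblast markers (4445 and 4745 CPM). In mean log2 level the fibroblast list differed by -0.48 between DHT and control mice (exact permutation P = 0.024, adjusted P = 0.071). The part of fibroblast markers in the fall of Mfap5 was not tested.

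**Figure D1:**
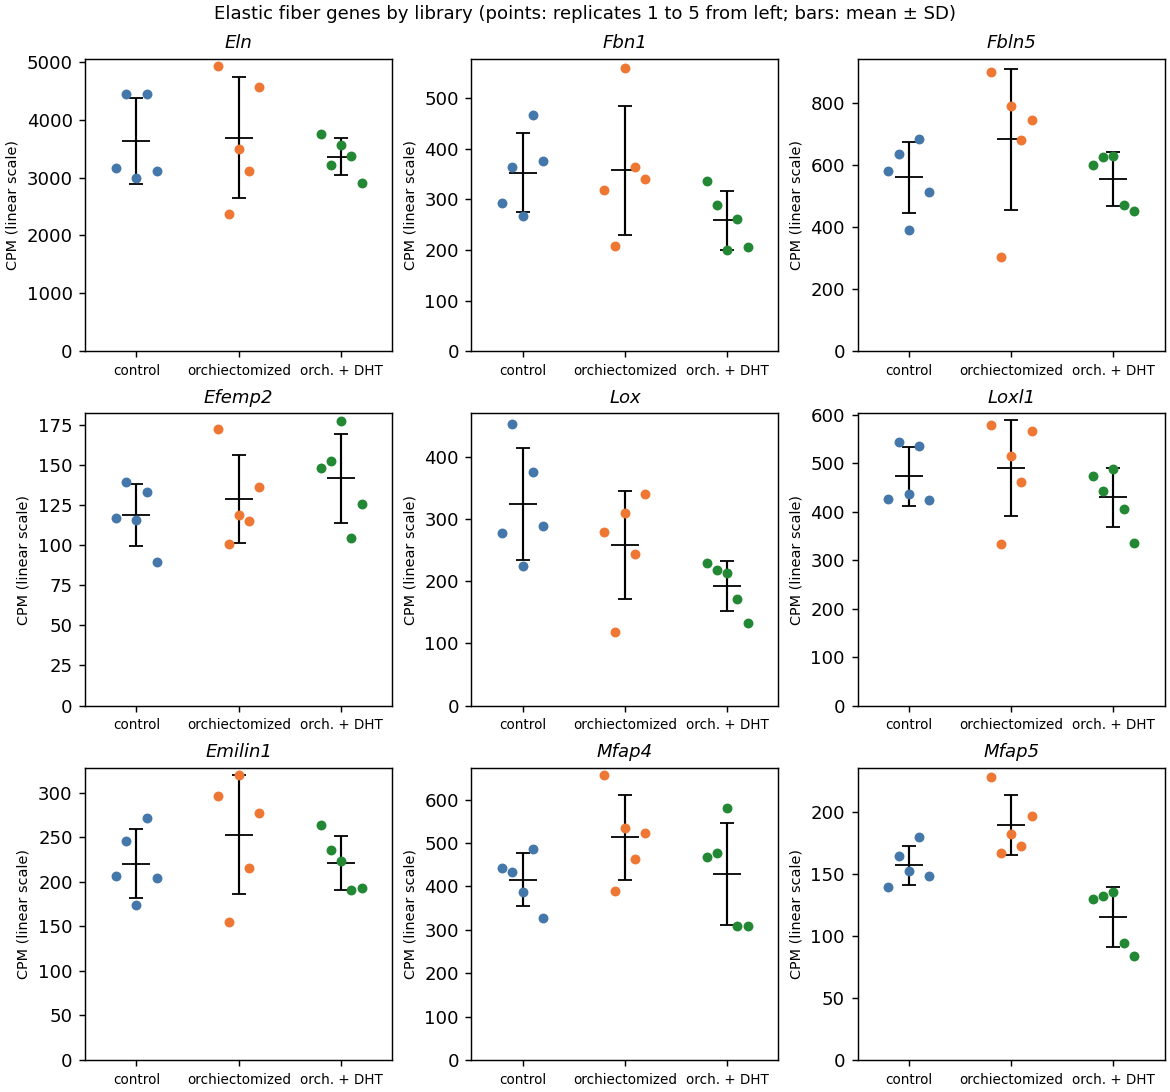
CPM of the 9 tested elastic fiber genes (linear vertical axis from 0) in control, orchiectomized and DHT-treated orchiectomized mice. Points are the 5 libraries of each group in order of replicate number, and bars are the mean ± SD. For Mfap5 the DHT points (84.3 to 136 CPM) lie below all points of the other groups, whereas for Eln the groups overlap.

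Mfap4, on chromosome 11 (61485431-61488900, plus strand), encodes a microfibril-associated glycoprotein that binds elastin and fibrillin. Control mice had 443, 432, 388, 486 and 327 CPM, orchiectomized mice 656, 390, 534, 462 and 522 CPM, and DHT mice 468, 476, 581, 308 and 308 CPM. The groups overlapped, with the widest spread in DHT mice. Mfap4 was not called, with log2 fold changes of 0.30 for orchiectomy (adjusted P = 0.52 by edgeR) and -0.26 for DHT against orchiectomy alone (adjusted P = 0.46). These were 0.18 and -0.14 without orchiectomized replicate 1, and the second was also -0.14 without DHT replicate 4 or 5. Mapk7 on the opposite strand overlaps Mfap4. Emilin1, on chromosome 5 (30913402-30921277, plus strand), encodes an elastin-binding glycoprotein at the interface of the elastin core and the microfibrils. It ranged from 174 to 272 CPM in control, 155 to 320 CPM in orchiectomized and 190 to 264 CPM in DHT mice, with log2 fold changes of 0.20, -0.19 and 0.00 in the 3 comparisons, the first 2 of which were 0.07 and -0.07 without orchiectomized replicate 3 and 0.31 and -0.31 without replicate 2.

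The fibulin genes among the 10 gave no call. Fbln5, on chromosome 12 (101746565-101819055, minus strand), encodes fibulin-5, which tethers tropoelastin to microfibrils and to the cell surface. Control mice had 579, 635, 391, 684 and 511 CPM, orchiectomized mice 899, 302, 789, 679 and 744 CPM, and DHT mice 599, 627, 629, 470 and 451 CPM. Of the orchiectomized libraries 3 exceeded every control library, but replicate 2 was the lowest of all 15. Fold changes on the log2 scale were 0.29 with orchiectomy (adjusted P = 0.64 by edgeR) and -0.30 for DHT against orchiectomy alone (adjusted P = 0.50). Without orchiectomized replicate 2 these were 0.46 (adjusted P = 0.61 by edgeR) and -0.47 (adjusted P = 0.13), larger but still not called. Without orchiectomized replicate 1 they were 0.15 and -0.16. Efemp2, on chromosome 19 (5473954-5482517, plus strand, overlapped by Mus81), encodes fibulin-4, which brings lysyl oxidase to elastin. Its mean was 119 ± 19.4 CPM in control, 129 ± 27.6 in orchiectomized and 142 ± 27.8 in DHT mice (SD, n = 5), and it was the tested gene of the 10 with a log2 fold change above 0 for DHT against orchiectomy alone (0.14, adjusted P = 0.68 by edgeR; 0.06 without DHT replicate 3 and 0.29 without orchiectomized replicate 1).

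Among the cross-linking enzymes Lox was the gene with the larger differences. Lox, on chromosome 18 (52516067-52529867, minus strand, overlapped by an antisense gene), encodes lysyl oxidase, which oxidizes lysines of elastin and collagen. Control mice had 278, 454, 225, 376 and 289 CPM. Orchiectomized mice had 280.0, 118, 310, 244 and 341 CPM, and DHT mice had 230, 218, 214, 172 and 132 CPM. DHT libraries were below 4 of the 5 control libraries, with an overlap between DHT replicate 1 (230 CPM) and control replicate 3 (225 CPM). For DHT against control the log2 fold change was -0.75 (95% CI -1.30 to -0.20, adjusted P = 0.29 by edgeR), which narrowly missed the call. It was -0.42 for DHT against orchiectomy alone (adjusted P = 0.37 by edgeR), where limma voom called it (-0.61, adjusted P = 0.094), and -0.33 with orchiectomy (adjusted P = 0.62), the last of which was -0.16 (adjusted P = 0.87) without orchiectomized replicate 2 and -0.17 (adjusted P = 0.84) without control replicate 2. Without orchiectomized replicate 2 or without control replicate 3, Lox was called in DHT against control mice (-0.75, adjusted P = 0.10, and -0.86, adjusted P = 0.27, by edgeR). The value against orchiectomy alone was -0.59 (adjusted P = 0.12 by edgeR, not called) without orchiectomized replicate 2 and -0.29 without DHT replicate 5. Loxl1, on chromosome 9 (58287738-58313186, minus strand), encodes the lysyl oxidase relative needed to renew elastic fibers. Its mean was 473 ± 61.3 CPM in control, 491 ± 99.2 in orchiectomized and 429 ± 61.3 in DHT mice (SD, n = 5), and it was not called, with log2 fold changes of 0.05, -0.19 and -0.14. Without DHT replicate 5 the last 2 were -0.09 and -0.06, and without orchiectomized replicate 1 the first 2 were -0.03 and -0.11. Without orchiectomized replicate 2 the first 2 were 0.15 and -0.29 (adjusted P = 0.80 and 0.22 by edgeR).

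Orchiectomy gave 0 calls among the 9 tested genes by edgeR, where 3.22% of all genes tested were called in either direction and 2.08% were called higher. At an unadjusted P value under 0.05 there were still 0 by edgeR and 0 by DESeq2, whereas limma voom with quality weights gave 4, and none of the 3 tools gave a call at 0.01. The log2 fold change was above 0 for 8 of the 9, with a median of 0.11 against 0.04 over all genes tested. Without orchiectomized replicate 2 the middle value was that of Efemp2 (0.17), against a median of 0.01 over all genes. Over all genes no adjusted P value was under 0.05 in that comparison by edgeR (smallest 0.096; 1692 genes at an unadjusted P value under 0.05), whereas DESeq2 gave 131 genes and limma voom 1.

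DHT against orchiectomy alone gave 1 call of 9, Mfap5, which fell and also passed the adjusted threshold. Over all genes tested 7.27% were called lower in that comparison, 3.8% were lower at an adjusted P value under 0.05, and 4.34% had every DHT library below every orchiectomized library in CPM. At 1 of 9 by edgeR, the elastic fiber genes were called about as often as genes in general. DESeq2 also called 1, whereas limma voom called 2, Lox and Mfap5, beside 865 of all 14121 genes called lower. At an unadjusted P value under 0.05 edgeR and DESeq2 gave 1 each and limma voom 5. Without orchiectomized replicate 2 edgeR still called Mfap5 and no other, while Fbn1, Fbln5, Lox and Loxl1 were lower at an unadjusted P value under 0.05. The log2 fold change was below 0 for 8 of the 9, with a median of -0.26 against -0.02 over all genes tested. DHT against control also gave 1 call, again Mfap5 and lower, where 2.01% of all genes were called lower and 1.79% were lower without overlap. None of the 9 passed the adjusted threshold there by edgeR, where 0.262% of all genes did in either direction. DESeq2 and limma voom each gave 2 calls in that comparison, Lox and Mfap5, while over all 14121 genes they called 362 and 491 lower. The 2 DHT comparisons share the DHT libraries and are not independent.

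**Figure D2:**
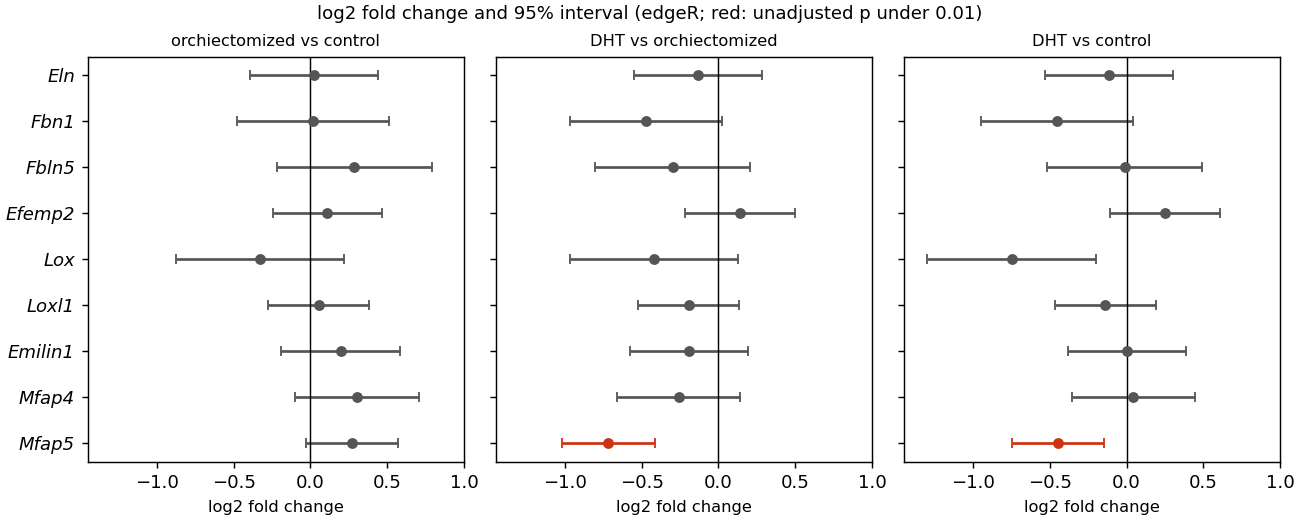
Log2 fold change (horizontal axis) of the 9 tested elastic fiber genes with its 95% confidence interval from edgeR, in 3 panels for the comparisons named above each. Red marks an unadjusted P value under 0.01, reached by Mfap5 in both DHT comparisons, while the intervals of Eln cover 0 in all panels.

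The elastic fiber genes varied together from mouse to mouse. Over the 36 pairs of the 9 tested genes, Pearson's r of log2 CPM across the 15 libraries was above 0 for 35, with a median of 0.66 and a range of -0.09 to 0.92. Without orchiectomized replicate 2 the median was 0.65, with a range of -0.25 to 0.90. With the group means removed, over all 15 libraries, it was 0.73. Fbln5 and Emilin1 were the most alike (r = 0.92), followed by Eln and Loxl1 (r = 0.90), and Fbn1 and Efemp2 were the least alike. These values share library, scaling and tissue composition and are a description. For scale, the median r of Eln with all other tested genes was -0.05.

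**Figure D3:**
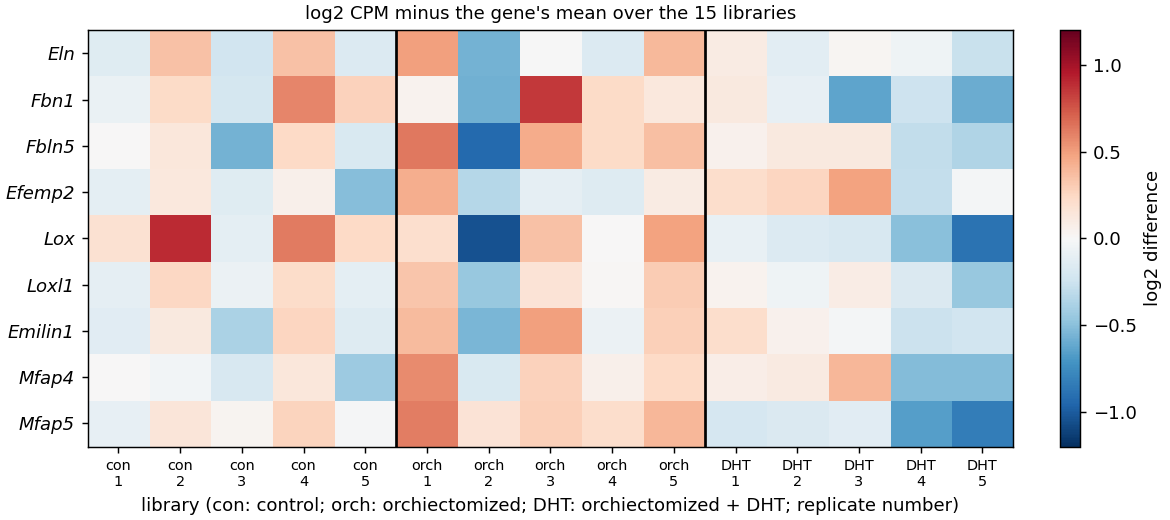
Log2 CPM of 9 elastic fiber genes (rows) in 15 libraries (columns) minus the mean of each gene over all libraries, in log2 units from blue (lower) to red (higher). Orchiectomized replicate 2 is blue in most rows, and Mfap5 is blue in all 5 DHT libraries.

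The genes outside the 10 whose log2 CPM followed Eln most closely over the 15 libraries were Cnn3 (r = 0.92), Wdr1 (0.90), Ltbp1 (0.90), Ckap4 (0.90) and Col18a1 (0.90). Cnn3 encodes an actin-binding calponin, Wdr1 a factor of actin filament disassembly, Ltbp1 a latent TGF-β binding protein that sits on microfibrils, Ckap4 a membrane protein of the endoplasmic reticulum and Col18a1 the collagen XVIII chain. Leaving out orchiectomized replicate 2 kept all 5 between 0.86 and 0.90.

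Because Eln and its partners rose and fell together across mice, each gene was also set against Eln in the same library, a measure added after the values were seen and one that library scaling cannot move. A change in tissue composition can still move it. With DHT against orchiectomy alone the smooth muscle list was higher (0.45) and the fibroblast list lower (-0.59), and against control likewise (0.33 and -0.48). The part of these shifts in the ratios was not tested. Lox stood at 8.77%, 10.2%, 7.54%, 8.46% and 9.25% of the Eln CPM in control mice. It stood at 5.69%, 4.996%, 8.89%, 7.84% and 7.46% in orchiectomized mice and at 6.12%, 6.78%, 5.99%, 5.09% and 4.55% in DHT mice. Every DHT library was below every control library, and the orchiectomized libraries spanned both. The log2 difference of the ratio between DHT and control was -0.64 (exact permutation P = 0.0079, two-sided, the smallest that 5 against 5 allow; adjusted P = 0.095 over 24 tests), and it stayed between -0.71 and -0.56 when any library was left out. Of all other genes tested 0.567% lay lower without overlap relative to Eln in that comparison.

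Mfap5 relative to Eln stood at 4.42%, 3.70%, 5.12%, 4.04% and 4.76% in control mice, at 4.65%, 7.08%, 5.23%, 5.55% and 4.32% in orchiectomized mice and at 3.46%, 4.13%, 3.81%, 2.79% and 2.90% in DHT mice. DHT and orchiectomized libraries did not overlap, while DHT and control libraries did. The log2 difference was -0.64 between DHT and orchiectomy alone (exact permutation P = 0.0079, adjusted P = 0.095 over 24 tests; -0.72 to -0.54 with any library left out) and -0.37 between DHT and control (exact permutation P = 0.040, adjusted P = 0.24). Of all other genes 0.467% lay lower without overlap relative to Eln in DHT against orchiectomized mice. No ratio of the other 6 genes separated 2 groups without overlap.

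**Figure D4:**
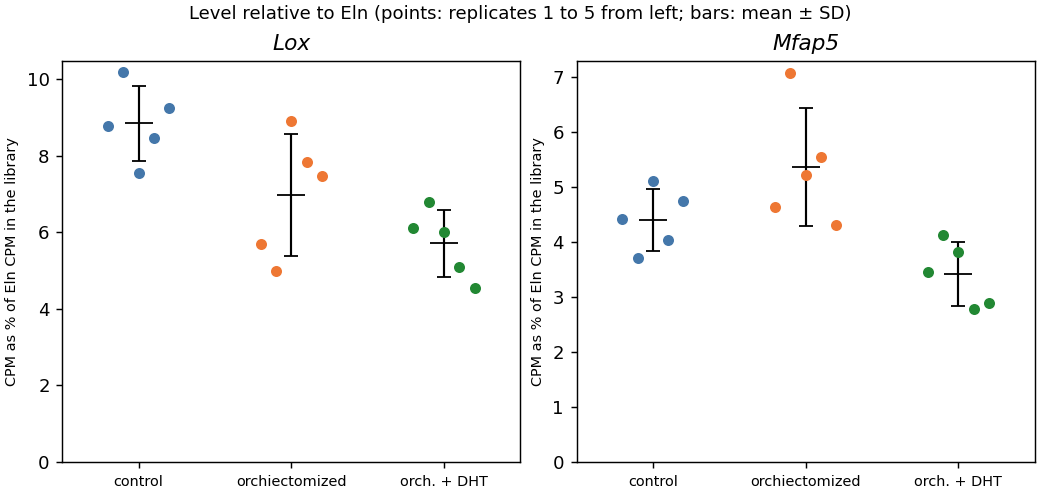
Lox and Mfap5 as percent of the Eln CPM of the same library (vertical axes from 0) in the 3 groups, with points for the 5 libraries in order of replicate number and bars for the mean ± SD. Lox in DHT mice (4.55% to 6.78%) lies below control mice (7.54% to 10.2%), and Mfap5 in DHT mice (2.79% to 4.13%) lies below orchiectomized mice (4.32% to 7.08%).

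Other proteins of the microfibril and the elastic fiber were followed through a further list. Of 17 listed partners, among them the fibulins outside the 10, latent TGF-β binding proteins, emilins, multimerins and ADAMTS-like proteins, 16 were tested and Emilin3 was not. Against orchiectomy alone 6 were called lower with DHT and none higher, 4 of the 6 at an adjusted P value under 0.05, beside 7.27% and 3.8% of all genes tested. DESeq2 called the same 6, with 5 past the adjusted threshold, whereas limma voom called 4, without Emilin2 and Adamtsl4, and passed 3. Efemp1, which encodes fibulin-3, fell by 1.33 on the log2 scale (SE 0.22, adjusted P = 0.0078 by edgeR), from 85.4 to 33.8 CPM in group means. Fbln1, a fibulin of basement membranes and elastic fibers, fell by 0.99 (adjusted P = 0.013 by edgeR), from 242 to 122 CPM. Fbln2, a fibulin of the vessel wall that binds fibrillin, fell by 0.90 (adjusted P = 0.011 by edgeR), from 201 to 108 CPM.

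Emilin2 fell by 1.03 on the log2 scale (adjusted P = 0.024 by edgeR), and Mmrn2, an emilin-family protein of endothelial matrix, fell by 0.49 and Adamtsl4, a microfibril-binding ADAMTS-like protein, by 0.51 without passing the adjusted threshold. Except for Adamtsl4, the DHT and orchiectomized libraries of these genes did not overlap, beside 4.34% of all genes that were lower without overlap. The median log2 fold change of the 16 was -0.37. Without orchiectomized replicate 2 there were 5 calls, since Adamtsl4 was no longer called (-0.34, adjusted P = 0.20 by edgeR). Against control 5 of the 16 fell, beside 2.01% of all genes, the same genes without Adamtsl4, with log2 decreases of 0.58 for Mmrn2, 0.73 for Efemp1, 0.74 for Fbln1, 0.75 for Emilin2 and 0.82 for Fbln2, and none passed the adjusted threshold by edgeR, whereas DESeq2 passed 3. Limma voom called 3 there, Fbln1, Fbln2 and Mmrn2, and passed 1 at the adjusted threshold. The edgeR count was 3 without control replicate 4 or 5 or without DHT replicate 3, 4 or 5. With orchiectomy 0 of 16 were called by edgeR, with 3 at an unadjusted P value under 0.05, while DESeq2 called 1, Efemp1 (edgeR log2 fold change 0.61, adjusted P = 0.33), and limma voom called 0. The edgeR count was 2 without orchiectomized replicate 5 and 1 without control replicate 4 or DHT replicate 2.

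Fibulins fell into those called and those not called with DHT. The log2 fold change for DHT against orchiectomy alone was -1.33 for Efemp1, -0.99 for Fbln1 and -0.90 for Fbln2, against -0.30 for Fbln5 and 0.14 for Efemp2. The 95% CI of Fbln5 (-0.80 to 0.21) overlaps those of Fbln1 (-1.39 to -0.59) and Fbln2 (-1.25 to -0.56) but not that of Efemp1 (-1.80 to -0.86). That of Efemp2 (-0.22 to 0.50) lies above all 3, and the difference between genes was not tested. Fibroblast markers were lower in the same DHT mice (-0.59 on the log2 scale, above), with 3 of 10 called lower (7.27% over all genes), and the mesothelial markers, 6 genes including Msln and Upk3b, were called lower in 6 of 6, with summed levels of 8.85 to 24.1 CPM in DHT mice and 46.7 to 380 CPM in orchiectomized mice, where the highest was replicate 2 and the other libraries reached 88.6 CPM. Of the 9 endothelial markers 3 were called lower, with summed levels of 778 to 986 CPM in DHT mice and 1030 to 1524 CPM in orchiectomized mice. In DHT against control mice 5 of 6 mesothelial, 3 of 9 endothelial and 2 of 10 fibroblast markers were called lower, beside 2.01% of all genes. The mesothelial list differed by -2.04 there (exact permutation P = 0.0079, adjusted P = 0.048). The part of these 3 marker lists in the fall of the partners, Mmrn2 included, was not tested in either comparison.

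In the list of cross-linking, processing and elastin receptor genes, 9 of 9 were tested and Loxl2, a lysyl oxidase relative that acts largely on basement membrane collagen, was the call. At 1 of 9, the list was near the 7.27% of all genes called lower against orchiectomy alone. Loxl2 fell by 0.43 on the log2 scale with DHT against orchiectomy alone (adjusted P = 0.084 by edgeR) and by 0.60 against control (adjusted P = 0.091 by edgeR), where the libraries did not overlap, beside 2.01% of all genes called lower and 1.79% lower without overlap. DESeq2 and limma voom both called it in each DHT comparison and passed it at the adjusted threshold against control. In edgeR the call against orchiectomy alone was lost with all genes that had a count, with the compared groups alone, with the replicate number as a block (replicate block), without control replicate 3, without orchiectomized replicate 1, 3, 4 or 5, or without DHT replicate 3, 4 or 5. With orchiectomy 0 of 9 were called, and 0 were under an unadjusted P value of 0.05 by edgeR, DESeq2 or limma voom. The median log2 fold change of the list was -0.04 for DHT against orchiectomy alone. Without orchiectomized replicate 2 the middle value was that of Loxl3 (-0.09), against a median of 0.01 over all genes.

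Elastic fibers are broken down by a small set of elastases, metalloproteinases and cathepsins. Of 11 listed, 8 were tested, and Mmp7, Elane and Ctsg were not. Against orchiectomy alone 5 of the 8 were called lower with DHT, all at an adjusted P value under 0.05, and none higher, beside 7.27% and 3.8% of all genes tested. The log2 fold change was above 0 for 2 of the 8, Cela1 (5.77 to 8.72 CPM in group means) and Prtn3 (0.715 to 1.26 CPM). DESeq2 called the same 5, whereas limma voom called 4, without Ctsk, and passed 3 at the adjusted threshold. Mmp12, the macrophage elastase, fell by 1.96 on the log2 scale (SE 0.43, adjusted P = 0.024 by edgeR) from a low level of 2.03 CPM to 0.510 CPM. Ctss, a cathepsin of macrophages and other antigen-presenting cells, fell by 1.31 (adjusted P = 0.037 by edgeR). Mmp2, the gelatinase of fibroblasts and smooth muscle, fell by 0.96 (adjusted P = 0.0068 by edgeR), from 188 to 96.8 CPM.

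Ctsk, a potent collagenase and elastase, fell by 0.91 on the log2 scale and Ctsl, a lysosomal cathepsin, by 0.49 (adjusted P = 0.028 and 0.026 by edgeR). All 5 remained called without orchiectomized replicate 2, with Ctsk and Ctss then missing the adjusted threshold (adjusted P = 0.061 and 0.083 by edgeR). Macrophage markers were lower in DHT mice than in orchiectomized mice by 0.75 on the log2 scale (exact permutation P = 0.024, adjusted P = 0.071), at 334 to 643 CPM summed over 8 genes against 612 to 1462 CPM, and their part in these falls was not tested. The highest of these was again orchiectomized replicate 2, and the other libraries of its group reached 853 CPM. With orchiectomy Mmp2 rose by 0.47 on the log2 scale (adjusted P = 0.30 by edgeR), a call that was lost without orchiectomized replicate 2 (0.38, adjusted P = 0.65 by edgeR), 3 or 4, without control replicate 1, 2, 3 or 5, or without DHT replicate 3 or 5. It was also lost with all genes that had a count, with the replicate block and in limma voom, which called 0 enzymes with orchiectomy, while DESeq2 called 2, Mmp2 and Ctsk. Over all 14121 genes edgeR called 454 and DESeq2 620 in that comparison. Against control Mmp2 fell by 0.49 on the log2 scale (adjusted P = 0.24 by edgeR), a call that was lost without control replicate 4 or 5 or DHT replicate 4 or 5, and with the replicate block. DESeq2 called Mmp2 in that comparison too, whereas limma voom called Mmp12 and not Mmp2.

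Of 7 elastase inhibitors 6 were tested, and 0 were called in any comparison by edgeR or DESeq2. Each tool gave 1 at an unadjusted P value under 0.05, for DHT against orchiectomy alone, and 0 in the other comparisons. Timp4, a tissue inhibitor of metalloproteinases, had a log2 fold change of 0.48 there (adjusted P = 0.17 by edgeR), and limma voom called it. Slpi, an inhibitor of leukocyte elastase, had -1.27 with a 95% CI from -2.79 to 0.25, and -0.27 (adjusted P = 0.83 by edgeR) without orchiectomized replicate 2. For the DHT comparison with orchiectomy alone the median log2 fold change was -0.93 over the 8 enzymes and -0.15 over the 6 inhibitors. Among RefSeq windows, 6 of 9 elastin-degrading enzyme genes held the AGAACA hexamer, Cela1, Ctsk, Ctss, Elane, Mmp7 and Mmp12, of which Ctsk, Ctss and Mmp12 fell with DHT. Cela1 was not called and had a log2 fold change above 0, and Elane and Mmp7 were not tested. Ctsl, which fell too, had none in its window, and Mmp2 had no window. By window this was 7 of 11, with 2 overlapping windows of Mmp7 that share a match, beside the 19.0% of all windows given above.

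**Figure D5:**
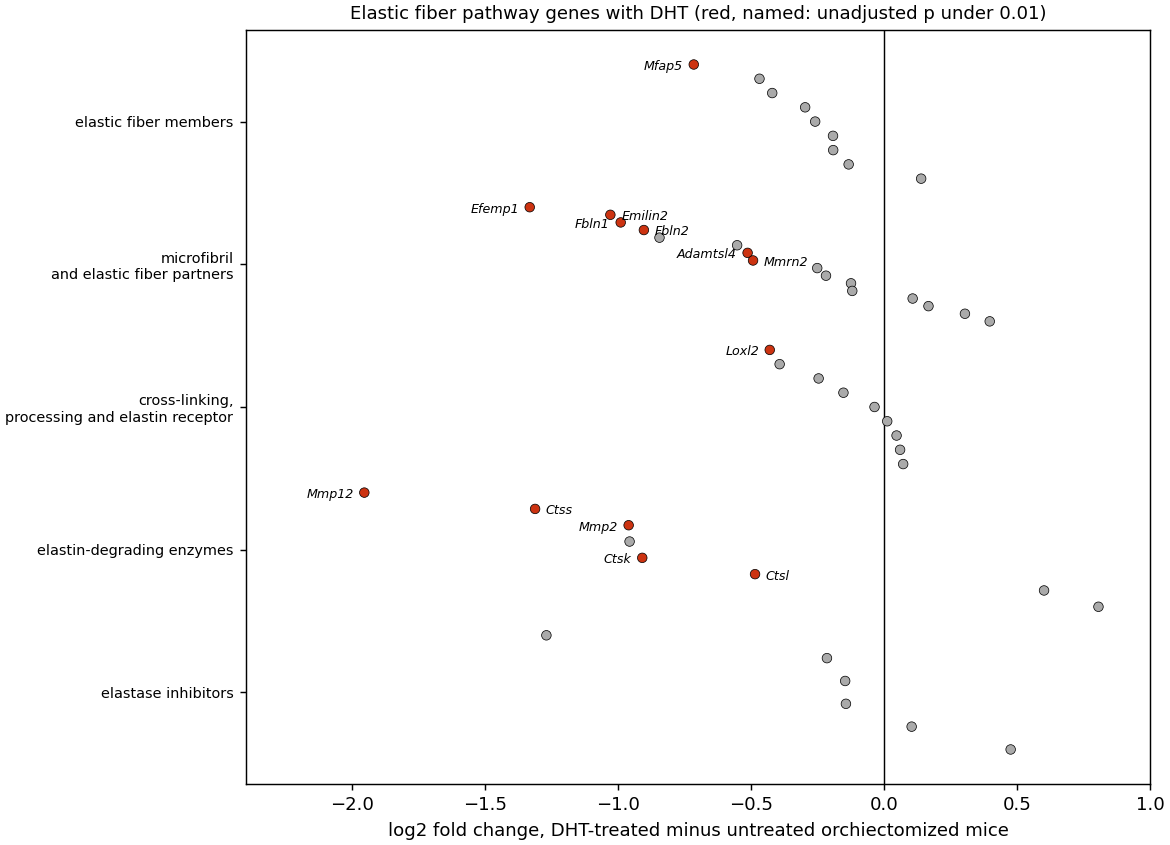
Log2 fold change for DHT-treated against untreated orchiectomized mice (horizontal axis) of the tested genes in 5 lists (rows, each point a gene, ordered by value within the list). Red points with names have an unadjusted P value under 0.01: Mfap5 among the elastic fiber genes, 6 partners, Loxl2 and 5 elastin-degrading enzymes, all below 0.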

How the data were processed

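Whole-aorta RNA of 15 mice was sequenced as poly(A)-selected libraries, and the authors deposited 1 table of raw read counts per gene symbol for each library. Their processing notes name STAR, Cufflinks, DESeq2 and the mm10 build, without versions; the counting program, its strand setting and its annotation are not given in the sources used here. The 2 entries that name no gene (no feature, 6.26% to 14.4% of reads; ambiguous, 1.34% to 1.97%) were left out. The edgeR filter filterByExpr, with 10 as minimum count and 15 as minimum total, left 14121 genes, which were scaled by TMM and fitted with the quasi-likelihood test of edgeR 4.0.16 (R 4.3.3) over all 3 groups. DESeq2 1.42.0 and limma voom 3.58.1 were alternatives, as were other filters, scalings, sample sets and leaving out each library. The edgeR fit was tested on simulated counts, for orchiectomy against control. Marker and ratio values were compared by exact permutation tests over mice. Libraries are separate mice. The highest correlation between any 2 libraries was 0.989, and none was a duplicate. Gene models are GENCODE M21 and start-site windows RefSeq. Named genes were the 10 elastic fiber genes, pathway genes called in any comparison (or, in a list with none, the 2 with the smallest P value) and the 5 genes most like Eln. The genes and lists were chosen with earlier results of these data known.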

Additional observations from a re-analysis of the deposited data

How the results depend on the processing

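Over 567 refitted log2 fold changes of the 9 tested elastic fiber genes, 511 kept direction and side of the threshold, 5 lost and 6 gained a call, and 45 changed sign. Counts of elastic fiber genes called changed as follows. For DHT against orchiectomy alone, limma voom called 2 in place of 1, and the adjusted count fell from 1 to 0 when the fit held the compared groups alone. For DHT against control, DESeq2, limma voom and the fit of the compared groups alone each called 2 in place of 1, the adjusted threshold gave 0 in place of 1 (and the unadjusted threshold 1 in place of 0), and leaving out a library gave 0 to 2 (0 without control replicate 2 or 4 or DHT replicate 4 or 5, and 2 without control replicate 3 or orchiectomized replicate 2). The cause was not tested. Sign changes for orchiectomy against control were -0.0209 (all genes with a count) and -0.0008 (compared groups alone) for Eln, and -0.0032 (DESeq2), -0.0033 (size factors of DESeq2 in edgeR), -0.0218 (all genes with a count) and -0.0022 (compared groups alone) for Fbn1. For DHT against control they were 0.0380 for Fbln5 (limma voom) and -0.0023 for Emilin1 (all genes with a count). Leaving out a library gave ranges that cross 0 for orchiectomy against control in Eln (-0.1246 to 0.1296), Fbn1 (-0.2239 to 0.1508), Efemp2 (-0.0396 to 0.1749) and Loxl1 (-0.0335 to 0.1503), for DHT against orchiectomy alone in Eln (-0.2398 to 0.0106), and for DHT against control in Fbln5 (-0.1233 to 0.0700), Emilin1 (-0.0766 to 0.0914) and Mfap4 (-0.0965 to 0.1437).

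The replicate numbers share no stated meaning, and 5 of 15 same-numbered pairs correlated above 0.1 (r from -0.47 to 0.46), with 3 of 15 libraries closest to their own number. So few pairs cannot exclude that the numbers pair the mice, and the main fit used no pairing. With a replicate block the DHT against control count was 0 in place of 1 (Mfap5 -0.46, adjusted P = 0.38 by edgeR), Emilin1 gave -0.0072, and the counts of the other comparisons did not move. Fbn2, with at most 9 reads per library, was too scarce to test.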
